A study of Xenopus tropicalis with 24 samples.

Results

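Control intestine of tadpoles labelled TRDKO was set against control intestine of wild-type (WT) tadpoles, to read how the organ's transcripts differed when the thyroid hormone receptors were knocked out and no hormone had been added. The libraries were taken by their labels, 3 of TRDKO control intestine and 3 of WT control intestine, 6 of the 24 in the study, and all 26531 genes of the count table were examined. The animals were Xenopus tropicalis, a diploid frog, at tadpole stage 54. TRDKO stands for a double knockout of the receptor genes thra and thrb. The study kept animals of both genotypes at 25 °C for 18 h, either in 5 nM T3, the active thyroid hormone, or untreated, and took intestine and tail, which gave 8 groups of 3 libraries. The labels give neither the lesions in the receptor genes nor the number of animals behind a library. Whether replicates come from different animals is not stated, and the p-values given here rest on the spread among these libraries alone, which may be technical.

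Thyroid hormone receptors are nuclear receptors that sit on response elements in DNA together with a retinoid X receptor (RXR). Without hormone the receptor recruits corepressor complexes and holds its response genes down, and hormone turns the same complex into an activator. In the premetamorphic tadpole little hormone circulates, so loss of the receptor removes mainly the unliganded form. The larval intestine is a long tube of absorptive epithelium with little connective tissue, and at metamorphosis the hormone drives its shortening and the rise of adult stem cells.

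The 6 libraries held 20114189 to 24699154 counted fragments and 18115 to 18850 genes with a count, and the 24 libraries of the study 17577407 to 24699154 fragments. Levels below are CPM (counts scaled to a common library total) after normalising the 6 libraries by trimmed means. Fold changes are TRDKO over WT on the log2 scale, ± a standard error. That error was derived from the test's F statistic, as the size of the change over the square root of F. For genes with few counts in a group it can lie below counting error alone, so it is no guide to the precision of such folds. "Rose" and "fell" mean higher and lower in TRDKO than in WT, with a Benjamini-Hochberg adjusted p under 0.05 in edgeR's quasi-likelihood test. The biological coefficient of variation over the replicates was 2.0%, so small differences passed. Intestinal markers were present in both genotypes, with the microvillus gene vil1 at 1629 CPM in TRDKO against 2749 in WT and the fatty acid binding protein gene fabp2 at 1464 CPM in TRDKO against 1440.3 in WT. Some libraries stood apart, and their values stand beside the results they touch. The WT control libraries carried inducible stress transcripts at high level, and the TRDKO control intestine carried pancreatic transcripts. Among the T3 libraries used for comparison, TRDKO T3 intestine replicate 3 differed from its group's other two by a mean chi-square of 22.8 and 27.6 per gene, where pairs of replicates among the 6 libraries gave 1.0927 to 2.1478.

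Of 15214 genes tested, 10996 passed (72.3%), 5512 higher in TRDKO (36.2%) and 5484 lower (36.0%). Higher genes were thus 50.13% of those that passed, and 60.45% under upper-quartile scaling. At a size of at least 2-fold, 1128 were higher (7.41%) and 951 lower (6.25%), and 782 and 652 of these had gene names and not provisional locus symbols. Differences of at least 4-fold covered 329 higher and 328 lower genes, and those of at least 32-fold 90 and 51. The median log2 fold change over all genes was 0.01, and its median size regardless of sign was 0.31. In 5537 genes (36.4%) every TRDKO library lay above every WT library, and in 5533 (36.4%) below. With so many genes past the test, a list of genes is informative only where its counts leave these shares or its changes are large. In bulk tissue, fewer cells of a type and less RNA per cell cannot be told apart, in any result below.

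**Figure D1:**
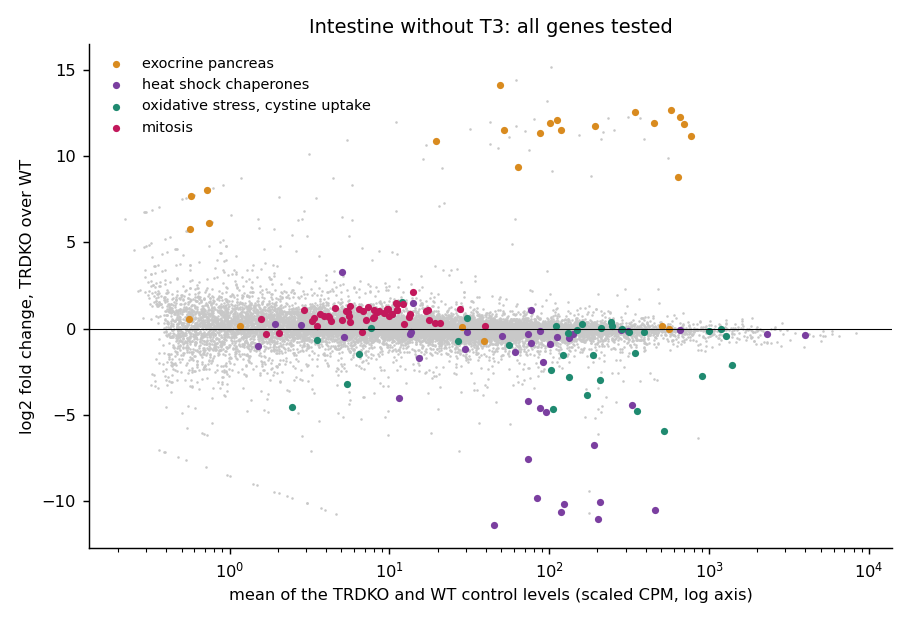
Mean level of each tested gene (mean of TRDKO and WT CPM, log axis) against its log2 fold change, TRDKO over WT, in control intestine. Grey points are the 15214 tested genes and coloured points the members of 4 lists: exocrine pancreas genes lie at the top, mitosis genes just above 0, and the heat shock and oxidative stress lists reach far below 0.

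The targeted genes came first. The gene thra, which encodes the receptor that predominates before metamorphosis, lies on chromosome 10 from 9063035 to 9190651 on the minus strand in the counted annotation, and had 4.68, 5.05 and 4.55 CPM in TRDKO, against 7.699, 9.63 and 10.1 CPM in WT. All 3 TRDKO libraries lay below all 3 WT libraries, and the fold change was -0.94 ± 0.10 (adjusted p = 2.85e-15). With T3 thra was not lower in TRDKO, as given below. The gene thrb, which the hormone itself induces, lies on chromosome 6 from 46687270 to 46933187 on the minus strand and had 4.49, 5.096 and 4.55 CPM in TRDKO, against 3.15, 3.19 and 3.08 CPM in WT. Here every TRDKO library was above every WT library, by 0.58 ± 0.13 (adjusted p = 2.35e-05). Per kilobase of gene model, the level of thra was 0.692 CPM in TRDKO and 1.33 CPM in WT, and that of thrb 0.381 CPM in TRDKO and 0.254 CPM in WT. Transcripts of both genes were thus still counted in TRDKO libraries, and since the lesions are not given in the labels these counts do not check the genotype.

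Of the receptors and their RXR partners 4 of 5 rose and 1 fell, where 36.2% of all genes were higher and 36.0% lower. The partner gene rxra had 53.4, 54.9 and 50.7 CPM in TRDKO, against 33.7, 30.7 and 31.5 CPM in WT, a rise of 0.73 ± 0.04. The scarcer partner rxrg rose by 0.98 ± 0.10 (8.26 ± 0.737 CPM in TRDKO against 4.15 ± 0.419 in WT, mean ± SD, n = 3 each, as below) and the abundant rxrb by 0.14 ± 0.03 (114 CPM in TRDKO against 104 in WT). With T3, where the genotypes were compared in other libraries, rxra again differed by 0.99 and rxrg did not pass (-0.04, adjusted p = 0.823). Of the 5 genes only rxra rose and only thrb fell there, where 18.6% of all genes were higher and 19.1% lower, so thra did not pass. Without TRDKO T3 replicate 3, where 33.4% were higher and 33.4% lower, 3 of 5 rose, thra among them, and only thrb fell.

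Known response genes of thyroid hormone did not move one way. Of 21 members tested 13 rose, 7 fell and 1 did not pass, with a median log2 fold change of 0.32 against 0.01 over all genes. Their summed level had the other sign, 1452 ± 14.4 CPM in TRDKO against 1948 ± 40.4 in WT. Most of that sum came from cebpd and slc3a2, given below, which both fell. The strongest rise was in dio3, the deiodinase that inactivates the hormone, with 5.77, 6.001 and 4.95 CPM in TRDKO, against 0, 0 and 0.176 CPM in WT. It was nearly absent from WT (390 counts in TRDKO against 4 in WT over the group) and present in all TRDKO libraries, a fitted difference of 6.39 ± 0.30 (adjusted p = 1.49e-37). The stromal protease gene mmp11 had 50 counts in TRDKO against 4 in WT (3.43 ± 0.52), low in both genotypes. The morphogen gene bmp4, expressed in the connective tissue of the gut, had 15.7, 16.1 and 15.2 CPM in TRDKO, against 4.72, 4.03 and 4.88 CPM in WT, a rise of 1.77 ± 0.09 with no overlap between genotypes. The gelatinase mmp2 rose by 1.42 ± 0.08 (15.3 CPM in TRDKO against 5.75 in WT) and its membrane-bound activator mmp14 by 1.03 ± 0.06 (30.8 CPM in TRDKO against 15.1 in WT). Some transcription factor genes of the list rose too, sox4 by 1.04 ± 0.07 (17.5 CPM in TRDKO against 8.57 in WT), mecom by 0.98 ± 0.08 (14.1 CPM in TRDKO against 7.05 in WT) and nfic by 0.86 ± 0.16 (3.24 CPM in TRDKO against 1.798 in WT).

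The zinc finger gene klf9, a direct early target of the receptor in amphibians, went the other way, with 8.26, 7.62 and 6.9998 CPM in TRDKO, against 23.8, 25.4 and 21.3 CPM in WT. Each TRDKO library held less than every WT library, and klf9 fell by 1.61 on the log2 scale (SE 0.07, adjusted p = 1.16e-41). The leucine zipper factor cebpd changed by -1.05 ± 0.03 (302 CPM in TRDKO against 624 in WT), the amino acid and hormone carrier slc7a5 by -1.09 ± 0.12 (2.91 CPM in TRDKO against 6.27 in WT) and its partner chain slc3a2 by -0.37 ± 0.03 (754 CPM in TRDKO against 971 in WT). The arginine methyltransferase and coactivator prmt1 and the epithelial morphogen shh fell by less, with -0.34 and -0.30. Some classical response genes were too low to test, among them thibz, a leucine zipper gene of amphibian metamorphosis, with 12 counts in TRDKO against 16 in WT over the groups, the collagenase mmp13 with 1 count in TRDKO against 2 in WT and the leptin receptor gene lepr with 7 counts in TRDKO against 7 in WT.

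**Figure D2:**
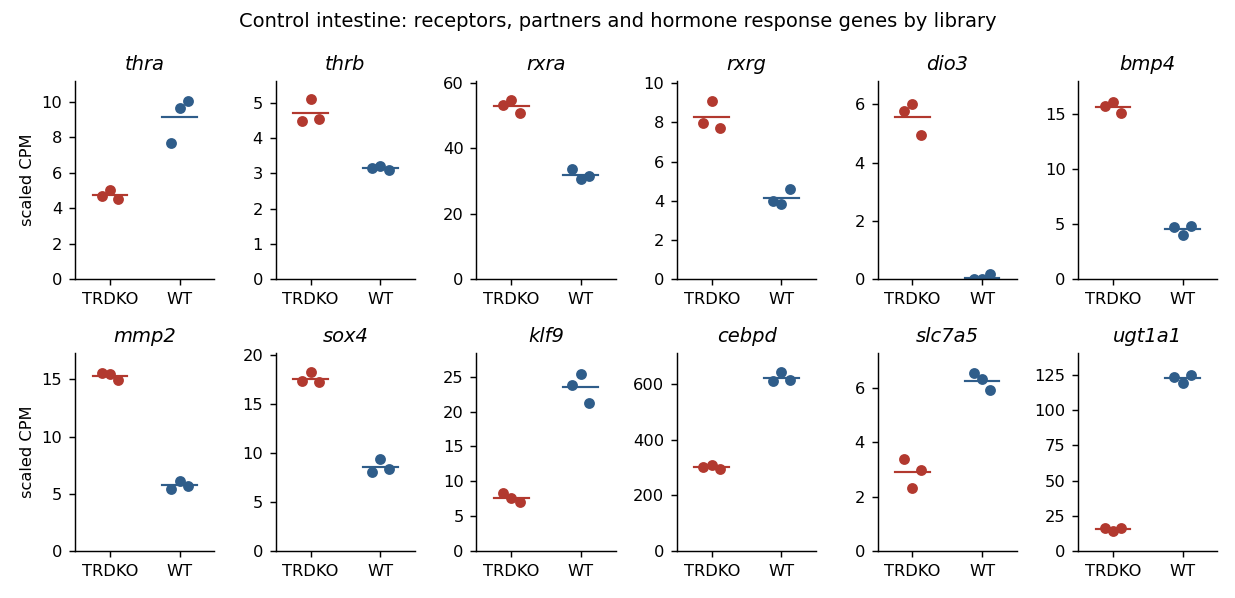
Scaled CPM in each control intestine library, TRDKO left of WT, for the receptors thra and thrb, the partners rxra and rxrg, and 8 genes of hormone response or metabolism. Points are libraries and bars group means (n = 3 each). The genotypes overlap in none of these 12 genes, with thra, klf9, cebpd, slc7a5 and ugt1a1 lower in TRDKO and the other genes higher.

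The sign of several response genes depended on the hormone state. In the T3 libraries, where 37.7% of 14923 genes passed, 4 of 23 members were higher in TRDKO (18.6% of all genes) and 11 lower (19.1%), with a median of -0.26. Without TRDKO T3 replicate 3 these counts were 11 and 12, where 33.4% of 15158 genes were higher and 33.4% lower. In the T3 libraries dio3 stood at 0.534 CPM in TRDKO against 1.14 in WT (-1.09), mmp11 at 8.801 CPM in TRDKO against 36.9 in WT (-2.06), sox4 at -1.07 and mecom at -0.87, all lower in TRDKO, where they were higher without hormone. The genotype by T3 interaction passed for each, at -7.48 for dio3, -5.49 for mmp11, -2.11 for sox4 and -1.86 for mecom, the largest adjusted p being 1.93e-07. The klf9 difference with T3 did not pass (0.24, adjusted p = 0.597, 45.4 ± 21.05 CPM in TRDKO against 38.7 ± 0.381 in WT, SD, n = 3 each). That call rests on TRDKO T3 replicate 3, which held 21.1 CPM of klf9 where the other TRDKO T3 libraries held 56.9 and 58.1 CPM, and without it klf9 was higher in TRDKO (0.57 ± 0.04, adjusted p = 4.06e-22). In control tail klf9 was lower in TRDKO too, at -3.34, and dio3 higher, at 1.28.

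Genes that clear or carry thyroid hormone were mixed. Of 19 tested, 5 rose and 9 fell, with a median of -0.05. The glucuronosyltransferase gene ugt1a1, which conjugates bilirubin and thyroid hormone for excretion, had 16.2, 14.002 and 16.5 CPM in TRDKO, against 124, 119 and 125 CPM in WT. Every TRDKO library was far below the WT libraries, a change of -2.98 ± 0.04 (adjusted p = 3.86e-96). The organic anion carrier slco2b1 changed by -0.98 (56.8 CPM in TRDKO against 112 in WT) and the iodotyrosine deiodinase iyd by -0.81 (14.5 CPM in TRDKO against 25.6 in WT), while the plasma carrier ttr rose by 1.37 ± 0.08 (14.99 CPM in TRDKO against 5.79 in WT). The activating deiodinases did not pass, dio1 at 1.76 CPM in TRDKO against 1.398 in WT (adjusted p = 0.103) and dio2 at 2.93 CPM in TRDKO against 2.61 in WT (adjusted p = 0.314).

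Coregulators of nuclear receptors were more often lower. Of 25 tested, 5 rose and 15 fell (median -0.15), though under upper-quartile scaling 10 rose and 11 fell. The coactivator gene ncoa1 changed most, by -1.21 ± 0.05 (18.5 ± 0.571 CPM in TRDKO against 42.8 ± 0.558 in WT), and the mediator subunit med1 by -0.53, the acetyltransferase ep300 by -0.50 and the coactivator ncoa2 by -0.45. The gene ncor1, whose product is a corepressor that binds the unliganded receptor, changed by -0.51 ± 0.03 (97.3 CPM in TRDKO against 139 in WT). Corticosteroid response genes, in a hormone axis that acts with thyroid hormone at metamorphosis, fell in 12 of 17 and rose in 2, with a median of -0.46. Among them the gluconeogenic enzyme pck1 had 493, 501 and 501 CPM in TRDKO, against 2138, 2279 and 2122 CPM in WT, a change of -2.13 ± 0.04, the glucocorticoid-induced zinc finger gene zbtb16 0.918 CPM in TRDKO against 3.21 in WT (-1.81 ± 0.19) and the prostaglandin synthase ptgds 9.53 CPM in TRDKO against 72.9 in WT (-2.93 ± 0.05). The receptor nr3c1 itself changed by -0.19. With T3, where 18.6% of all genes were higher and 19.1% lower, 8 of 17 corticosteroid response genes rose and 1 fell (median 0.24). Without TRDKO T3 replicate 3, where 33.4% were higher and 33.4% lower, 12 rose and 3 fell. In control tail, where 36.8% of all genes were higher and 36.7% lower, 3 of 17 rose and 14 fell (median -0.43).

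The response to the hormone in the tail of WT animals gave 2 gene sets that share no library with the intestine comparison. Of 16163 genes tested there, T3 raised 833 at least 2-fold (5.15%) and lowered 965 (5.97%). Of the raised set 572 were tested in control intestine, where 36.2% of all genes were higher and 36.0% lower. Of these 572, 325 rose (56.82%) and 133 fell (23.25%), with a median of 0.36. In the lowered set 743 were tested, of which 86 rose (11.57%) and 528 fell (71.06%), with a median of -0.60. Both sets thus differed between genotypes, without hormone, mostly in the direction that T3 gave them in WT tail. Each of these comparisons rests on a WT control group. What part genes high in the WT control groups of both organs had in this was not tested. In WT tail control the oxidative stress list summed to 11350 CPM unscaled, against 3656 CPM in WT tail with T3. For the immediate early list the sums were 4306 and 2824 CPM, and for the heat shock list 8600 and 7894 CPM. Members of these 3 lists made up 48 of the 965 lowered genes. Without them, 482 of 695 lowered genes fell (69.35%) and the median was -0.55. That count cannot tell how large this part was, since genes outside the 3 lists that were high in both WT control groups stayed in. In the T3 intestine libraries the medians had the other sign, -0.14 for the raised set (576 tested) and 0.20 for the lowered set (688 tested).

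Genes of the heat shock response were among the largest falls, chaperones that hold and refold unfolded proteins. Of 42 heat shock genes tested 4 rose and 36 fell, 19 at least 2-fold, with a median of -0.67. The inducible chaperone hsp70, on chromosome 8 from 75108296 to 75111281 of the plus strand, had 0.906, 0.286 and 0.624 CPM in TRDKO, against 921, 911 and 902 CPM in WT. Each WT library held over 900 CPM and no TRDKO library reached 1, a change of -10.49 ± 0.07 (adjusted p = 7.28e-131). The related hspa1b had 0.182 CPM in TRDKO against 402 in WT (-11.04 ± 0.07), and hsp90aa1.2, a cytosolic chaperone of steroid receptors and other clients, had 2 counts in TRDKO against 5915 in WT, 3165-fold (95% counting interval 876 to 26139) lower. The small chaperones hsp30c and hsp30d stood at 0.135 CPM in TRDKO against 236 in WT and 0.209 CPM in TRDKO against 247 in WT. Cochaperones moved with them, dnajb1 at 29.98 CPM in TRDKO against 632 in WT, hsph1 at 3.62 CPM in TRDKO against 375 in WT and bag3 at 7.69 CPM in TRDKO against 139 in WT, while the constitutive hspa8 changed only by -0.37 ± 0.04 (3448 CPM in TRDKO against 4467 in WT). Near-identical copies in the hsp70, hsp30 and hsp90 families can exchange reads, so levels of single copies are uncertain. The 4 that rose were unc45b, a myosin chaperone (3.31 ± 0.14, 9.23 CPM in TRDKO against 0.926 in WT), serpinh1, the collagen chaperone (1.51 ± 0.07), and the small chaperones of muscle hspb6 (1.11 ± 0.03) and hspb8 (0.88).

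Defence against oxidants, metals and electrophiles followed. Of 34 genes tested 6 rose and 24 fell, 15 at least 2-fold (median -0.66). Heme oxygenase, hmox1, had 16.9, 16.4 and 17.2 CPM in TRDKO, against 1014, 1048 and 997 CPM in WT, a change of -5.92 ± 0.04 (adjusted p = 6.87e-128) with the 3 libraries of each genotype close together. The list's genes of glutathione synthesis were lower as well, with the catalytic subunit gclc at 25.2 CPM in TRDKO against 677 in WT (-4.75 ± 0.04), the modifier subunit gclm at 22.7 CPM in TRDKO against 323 in WT (-3.83 ± 0.03) and the cystine carrier slc7a11 at 0.204 CPM in TRDKO against 4.72 in WT. The metallothionein gene mt4, which is not a member of this list, had 21.1 ± 0.334 CPM in TRDKO against 1690.2 ± 86.04 in WT (-6.32 ± 0.05). Outside the lists, in genes chosen after their values were seen, glutathione synthetase gss stood at 18.5 CPM in TRDKO against 409 in WT (-4.46 ± 0.03), the iron-binding pirin gene pir at 26.5 CPM in TRDKO against 494 in WT and the porphyrin transporter abcb6 at 27.6 CPM in TRDKO against 422 in WT. Immediate early factors and MAPK feedback genes fell in 41 of 49 and rose in 2, with a median of -0.99. The AP-1 gene fosl1 had 1.66 CPM in TRDKO against 71.1 in WT (-5.44 ± 0.08), fos 23.1 CPM in TRDKO against 114 in WT (-2.30 ± 0.04) and the phosphatase dusp5 5.46 CPM in TRDKO against 31.7 in WT (-2.53 ± 0.07). In the unfolded protein response of the endoplasmic reticulum 6 of 27 rose and 16 fell (median -0.12), with 9 and 10 under upper-quartile scaling, and the chaperone hspa5 stood at 161 CPM in TRDKO against 409.7 in WT (-1.35 ± 0.03).

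These stress transcripts set the WT control group apart from every other intestine group. The summed heat shock level, unscaled, averaged 8138 CPM in TRDKO control and 13024 CPM in WT control, and with T3 7209 CPM in TRDKO and 8067 CPM in WT. For the oxidative stress list the sums were 7281 CPM in TRDKO control and 13107 CPM in WT control, and with T3 7473 CPM in TRDKO and 7909 CPM in WT. With T3 the sums of the genotypes thus lay closer, and hmox1 did not pass, at 13.7 CPM in TRDKO against 14.7 in WT (-0.09, adjusted p = 0.464). The level of hsp70 with T3 was low in both genotypes but again at least 2-fold lower in TRDKO, at 0.419 CPM against 1.099 in WT. Without TRDKO T3 replicate 3 its change was -1.10 ± 0.33 (adjusted p = 0.00236). With T3, where 18.6% of all genes were higher and 19.1% lower, 6 of 37 heat shock genes rose and 12 fell. Of 34 oxidative stress genes 8 rose and 3 fell. Without that replicate, where 33.4% were higher and 33.4% lower, 7 of 38 heat shock genes rose and 19 fell. For the oxidative stress list the counts were then 13 and 15. In control tail, where 36.8% of 16699 genes were higher in TRDKO and 36.7% lower, 5 of 44 heat shock genes rose and 33 fell, and 2 of 35 oxidative stress genes rose and 30 fell, with hmox1 at 32.1 CPM in TRDKO against 2242 in WT and hsp70 at 1.34 CPM in TRDKO against 150.4 in WT. What part these transcripts had in the other differences between the genotypes was not tested.

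**Figure D3:**
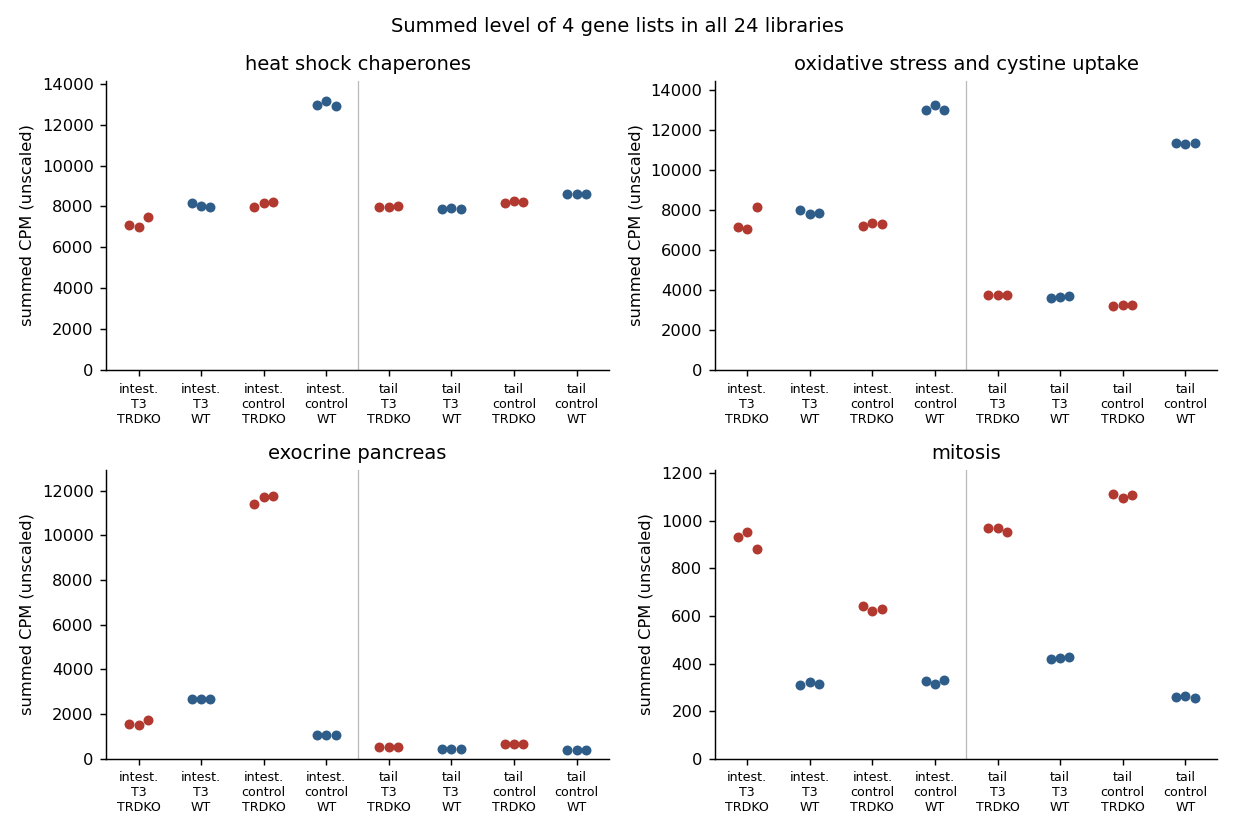
Summed unscaled CPM of 4 gene lists in all 24 libraries, red for TRDKO and blue for WT, by organ and hormone state with TRDKO left of WT. Heat shock genes are high in the 3 WT control intestine libraries alone, oxidative stress genes in the WT control libraries of both organs, exocrine pancreas genes in the 3 TRDKO control intestine libraries, and mitosis genes in the TRDKO libraries of every pair.

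Enzymes of the exocrine pancreas were among the largest rises, from the digestive gland that opens into the anterior intestine. Of 26 such genes tested, 21 rose, 1 fell and 4 did not pass, with 20 at least 2-fold higher and a median of 11.02 (10.96 with genes that lacked counts in a group held at 3 counts). The carboxypeptidase cpa1 had 1333, 1427 and 1441 CPM in TRDKO, against 0.553, 0.366 and 0.176 CPM in WT. It was thus close to absent in WT and among the abundant transcripts in TRDKO, a change of 11.88 ± 0.08 (adjusted p = 3.82e-123). The nuclease gene dnase1 had 99.3, 97.5 and 95.9 CPM in TRDKO, against 0, 0 and 0 CPM in WT, and with no count in WT it was at least 2128-fold higher, taking 3 counts over the group as the floor. Provisional loci without a gene name also lacked counts in WT, LOC116406450 at least 4441-fold and LOC116412105 at least 2675-fold higher. The carboxypeptidase cpb1 stood at 1152 CPM in TRDKO against 0.162 in WT, the elastase cela1.5 at 1312 CPM in TRDKO against 0.255 in WT, the chymotrypsin-type ctrc at 1532 CPM in TRDKO against 0.663 in WT and the amylase amy2a at 1268 CPM in TRDKO against 2.897 in WT. For the phospholipase pla2g1b the ratio was 4852-fold (95% counting interval 1659.9 to 23529.9), for the trypsin gene prss2 3406-fold (95% counting interval 943 to 28132) and for the lipase cofactor clps 2556-fold (95% counting interval 458 to 100987), all higher, with intervals that cover counting error only. The acinar transcription factor ptf1a had 100 counts in TRDKO against 0 in WT, at least 31.1-fold higher. Members of the cela1 family are near-identical and can exchange reads.

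Summed over the list, exocrine pancreas transcripts made up 10595 to 11221 CPM in TRDKO libraries, against 1101 to 1149.8 CPM in WT, where zg16, also a goblet cell gene, and the creatine enzyme gatm accounted for most (563 and 475 CPM). With T3, where 18.6% of all genes were higher and 19.1% lower, the list ran the other way, with 1 of 22 rising and 18 falling (median -1.97). Without TRDKO T3 replicate 3, where 33.4% were higher and 33.4% lower, 2 rose and 21 fell. The unscaled sums with T3 were 1603 CPM in TRDKO and 2667 CPM in WT. The genotype by T3 interaction passed for cpa1 at -13.73 and for cpb1 at -14.66. In control tail, where 36.8% of all genes were higher in TRDKO, 18 of 21 rose and 1 fell (median 7.06). The unscaled sums there were lower, 640 CPM in TRDKO control and 397 CPM in WT control. The part of pancreatic transcripts in the differences of other lists was not tested. Genes outside the lists with the same reversal, chosen after their values were seen, were pglyrp1, a peptidoglycan receptor (207 CPM in TRDKO against 0.374 in WT without T3 and 6.16 CPM in TRDKO against 26.3 in WT with it), endoul2 (362 CPM in TRDKO against 0.786 in WT and 8.85 CPM in TRDKO against 46.1 in WT), the serpin serpini2 (11.5 CPM in TRDKO against 0.136 in WT and 0.413 CPM in TRDKO against 1.36 in WT) and cblif, the vitamin B12 carrier (43.4 CPM in TRDKO against 0.277 in WT and 1.097 CPM in TRDKO against 3.34 in WT).

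Other glands next to the gut differed less in control intestine. Among endocrine pancreas genes 11 of 20 rose and 4 fell (median 0.16). Insulin, ins, had 11.2, 10.7 and 10.7 CPM in TRDKO, against 0.255, 0.314 and 0.2199 CPM in WT, a rise of 5.35 ± 0.18, and the islet factor pdx1 rose by 0.78 ± 0.11 (6.104 CPM in TRDKO against 3.57 in WT), but glucagon, gcg, made by both islets and gut, stood at 38.3 CPM in TRDKO against 32.9 in WT and amylin, iapp, at 4.899 CPM in TRDKO against 6.804 in WT. Of 6 stomach genes 4 rose and 1 fell, with the gastric claudin cldn18 at 16.4 ± 0.367 CPM in TRDKO against 0.721 ± 0.0776 in WT (4.501 ± 0.13) and the protease ctse at 8.18 CPM in TRDKO against 1.83 in WT, while the defining markers atp4a and pgc had 28 counts in TRDKO against 5 in WT and 0 counts in TRDKO against 21 in WT. Of 25 liver genes 12 rose and 8 fell (median 0.41). The summed liver level was 10167 ± 488 CPM in TRDKO against 11833 ± 462 in WT, most of it from apolipoproteins that the intestine also makes. Albumin, alb, had 165 counts in TRDKO against 0 in WT and fibrinogen, fgb, 108 counts in TRDKO against 0 in WT, at least 51.4-fold and 33.6-fold higher, and both had no count in any WT library of the study. The heme carrier hpx went the other way at 0.687 CPM in TRDKO against 18.8 in WT without T3 (-4.76 ± 0.13) and had 78.2 CPM in TRDKO against 0.124 in WT with T3. With T3, where 18.6% of all genes were higher, 19 of 28 liver genes rose and 1 fell (median 1.41). Without TRDKO T3 replicate 3, where 33.4% of all genes were higher, 20 of 29 rose and 2 fell. In control tail, where 36.8% of all genes were higher, 31 of 38 rose and 4 fell (median 2.05). The unscaled tail sum was nevertheless lower in TRDKO, 1442 CPM against 1822 CPM in WT.

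Absorptive enterocyte genes, the identity of the larval epithelium, leaned lower. Of 44 tested, 12 rose and 28 fell, none of the falls reaching 2-fold, with a median of -0.26 and a summed level of 57136 ± 2293 CPM in TRDKO against 70552 ± 2213 in WT. The chylomicron protein gene apoa4 had 626, 644 and 679.9 CPM in TRDKO, against 1242, 1304 and 1272 CPM in WT (-0.97 ± 0.03), the brush border peptidase anpep 3756 CPM in TRDKO against 6211 in WT (-0.73 ± 0.04), and the log2 change was -0.76 ± 0.04 for vil1 and -0.83 for hnf4a, a nuclear receptor of the epithelium. The fatty acid binding protein fabp2 did not pass (adjusted p = 0.589). Against that trend, the homeobox factors that specify intestine rose, cdx2 by 1.02 ± 0.03 (313 CPM in TRDKO against 154 in WT) and cdx1 by 0.51 ± 0.02 (189 CPM in TRDKO against 132 in WT), as did fabp1 (1.502 ± 0.03, 719 CPM in TRDKO against 254 in WT) and the ileal bile acid transporter slc10a2 (1.71 ± 0.04, 73.7 CPM in TRDKO against 22.5 in WT). All 3 TRDKO libraries lay above the WT libraries for cdx2, fabp1 and slc10a2. In control tail, where 36.8% of all genes were higher in TRDKO, 37 of 40 enterocyte genes rose and 1 fell (median 6.02). Their unscaled sums there were 987 CPM in TRDKO and 360 CPM in WT.

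Secretory and enteroendocrine genes were mixed, with 10 of 23 rising and 7 falling (median 0.11). The mucin muc2 changed by -0.63 ± 0.03 (459 CPM in TRDKO against 709.6 in WT), its folding partner agr2 by -0.66 and the mucus protein fcgbp by -2.68 ± 0.14, whereas insl5, a hormone of distal enteroendocrine cells, rose by 1.598 ± 0.06 (31.7 CPM in TRDKO against 10.5 in WT). Of 20 intestinal stem cell genes 11 rose and 6 fell (median 0.19), though their summed level was lower, 400.3 ± 8.74 CPM in TRDKO against 471 ± 4.85 in WT. The marker lgr5, a receptor of R-spondins, had 9.52 CPM in TRDKO against 6.78 in WT (0.49 ± 0.09), the progenitor factor sox9 rose by 0.79 ± 0.07, the WNT feedback gene axin2 by 0.82 ± 0.09 and the ephrin receptor ephb3 by 1.07 ± 0.08. In contrast myc stood at 46.5 CPM in TRDKO against 126 in WT (-1.43 ± 0.03) and olfm4 at 4.92 CPM in TRDKO against 12.6 in WT (-1.35 ± 0.09). Water and junction genes split too, with 9 of 26 rising and 14 falling, among them the aquaglyceroporin aqp10 (-2.39 ± 0.09) and the claudins cldn11 (3.09 ± 0.23) and cldn10 (1.71 ± 0.18).

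Genes of the connective tissue and muscle wall rose together. Of 44 collagen and matrix genes 38 rose and 2 fell, with a median of 0.60 and a summed level of 3914 ± 15.996 CPM in TRDKO against 2525 ± 16.4 in WT. The small proteoglycan gene dcn had 11.8, 11.7 and 13.6 CPM in TRDKO, against 2.81, 2.88 and 2.64 CPM in WT, a rise of 2.16 ± 0.10 in which the lowest TRDKO library was well above the highest WT library. The fibrillar collagen col5a3 rose by 1.596 ± 0.11 (8.26 CPM in TRDKO against 2.75 in WT) and the crosslinking enzyme loxl3 by 1.43 ± 0.10. Hedgehog and BMP genes rose in 24 of 37 and fell in 6 (median 0.45). Among them were genes that gut mesenchyme expresses, with the receptor and target ptch1 at 0.86, the forkhead targets foxf1 at 0.92 and foxl1 at 2.49, and the BMP antagonists grem1 at 1.47 ± 0.09 and nog at 1.23 ± 0.12, while the ligand shh changed by -0.30. WNT genes rose in 19 of 34 and fell in 7. Among the rises were wnt11 (1.00 ± 0.17), wnt5a (1.00 ± 0.14) and wnt5b (0.83 ± 0.02, 194 CPM in TRDKO against 109 in WT). The highest log2 fold change of a tested WNT member was 2.25, in a gene not named here. Notch genes rose in 7 of 20 and fell in 10 (median -0.12). Of 24 matrix proteases and their inhibitors 11 rose and 8 fell (median 0.15), with the aggrecanase adamts4 at 0.875 CPM in TRDKO against 5.68 in WT (-2.70 ± 0.16) and the epithelial protease mmp7 at 1.03 ± 0.07.

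Of 17 smooth muscle genes 14 rose and none fell, with a median of 0.29. The potassium channel subunit kcnmb1 stood at 45.2 CPM in TRDKO against 18.7 in WT (1.26 ± 0.05), the actin nucleator lmod1 at 35.6 CPM in TRDKO against 16.9 in WT (1.07 ± 0.05) and the master coactivator myocd at 8.42 CPM in TRDKO against 4.38 in WT (0.95 ± 0.10). Some transcription factors of the gut mesenchyme, named after their values were seen, were higher as well. Among them hand1 stood at 49.99 CPM in TRDKO against 16.04 in WT (1.64 ± 0.05) and hlx at 28.3 CPM in TRDKO against 9.77 in WT (1.53 ± 0.06). The others were nkx2-3 at 10.9 CPM in TRDKO against 4.09 in WT (1.42 ± 0.10), nr2f2 at 14.5 CPM in TRDKO against 5.93 in WT (1.28 ± 0.08) and foxd1 at 16.1 CPM in TRDKO against 3.43 in WT (2.24 ± 0.09). Values of hand2, meis1 and meis2, looked up with them, are not given here, so the class as a whole is not described. In the T3 libraries 18.6% of all genes were higher in TRDKO and 19.1% lower, and without TRDKO T3 replicate 3 33.4% and 33.4%. Smooth muscle genes fell there in 11 of 17 and rose in none (median -0.47, with 2 rising and 13 falling without TRDKO T3 replicate 3). Collagens rose there in 9 of 43 and fell in 10, near the shares of all genes (19 and 12 without that library). Hedgehog and BMP genes rose in 5 of 36 and fell in 12 (11 and 13). The list medians by genotype without T3 are shown in the plot of all lists.

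Genes of vessels, nerves and erythrocytes were more often higher, and other blood cell lists were not. Of 29 endothelial genes 21 rose and 3 fell (median 0.55), with the apelin receptor aplnr at 7.28 CPM in TRDKO against 1.61 in WT (2.17 ± 0.13) and the diaphragm protein plvap at 24.5 CPM in TRDKO against 9.89 in WT (1.31 ± 0.06). Nerve and glia genes rose in 16 of 20 and fell in 2, with a median of 1.11. Their summed level was nevertheless lower, 314 ± 1.33 CPM in TRDKO against 366 ± 4.32 in WT, with most of it from the 2 that fell, the myelin gene mbp (119 CPM in TRDKO against 147 in WT) and the receptor gene erbb3 (110.2 CPM in TRDKO against 174 in WT). The neuronal hydrolase uchl1 had 5.74, 6.29 and 6.599 CPM in TRDKO, against 1.06, 1.26 and 1.72 CPM in WT, with no overlap (2.19 ± 0.15). The neuronal tubulin tubb3 rose by 1.48 ± 0.14, the peripheral filament prph by 1.33 ± 0.13 and the nitric oxide synthase nos1 of enteric neurons by 1.39 ± 0.14. With T3, where 18.6% of all genes were higher and 19.1% lower, 8 of 18 nerve genes rose and 1 fell, and nos1 differed by 1.23. Without TRDKO T3 replicate 3, where 33.4% were higher and 33.4% lower, 11 nerve genes rose and 3 fell. Of 16 erythrocyte genes 10 rose and 2 fell, with the alpha globin gene hba3 at 446 CPM in TRDKO against 243 in WT (0.87 ± 0.03) and the carbonic anhydrase ca2 at 159.6 CPM in TRDKO against 56.02 in WT (1.51 ± 0.03). Of 25 macrophage and granulocyte genes 4 rose and 11 fell (median -0.07), including the cytokines cxcl8 (-1.99 ± 0.22) and il1b (-1.15 ± 0.13), and the neutrophil enzyme mpo rose by 1.36 ± 0.07. Interferon response genes were split, 12 of 31 higher and 13 lower, with irf1 at 103 CPM in TRDKO against 43.97 in WT (1.23 ± 0.03) and the RNA sensor ifih1 at 15.8 CPM in TRDKO against 46.7 in WT (-1.56 ± 0.05). Lymphocyte genes rose in 5 of 15 and fell in 3, and skeletal muscle genes rose in 6 of 8 and fell in 2. With upper-quartile scaling 6 skeletal muscle genes rose and 1 fell, and with all 12 intestine libraries in the fit 6 rose and 0 fell. Their summed level was 196 CPM in TRDKO against 202 in WT.

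**Figure D4:**
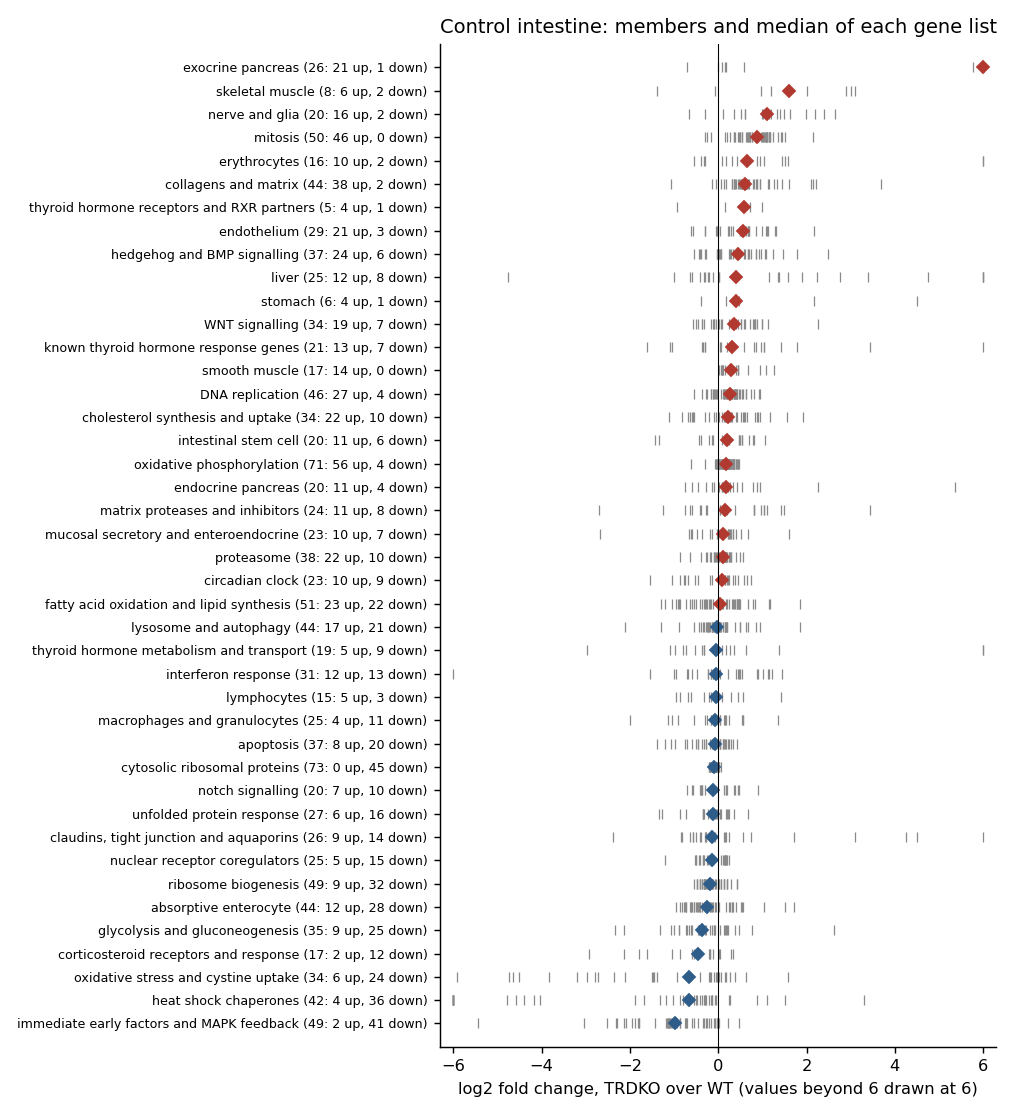
Log2 fold change, TRDKO over WT, in control intestine for the members of all 42 gene lists. Grey ticks are tested members, diamonds list medians (red above 0, blue below), and labels give the members tested and how many rose and fell. Values beyond 6 are drawn at 6. The medians run from 11.02 for exocrine pancreas to -0.99 for immediate early genes.

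Mitosis genes were higher with few exceptions. Of 50 tested, 46 rose and none fell, with 20 at least 2-fold higher and a median of 0.87. The cyclin gene ccnb3 had 22.9, 23.4 and 22.6 CPM in TRDKO, against 5.27, 5.34 and 4.88 CPM in WT. Every TRDKO library was more than 4-fold above every WT library, a rise of 2.15 ± 0.08 (adjusted p = 2.78e-52). The mitotic kinase plk1 stood at 16.1 CPM in TRDKO against 5.68 in WT (1.51 ± 0.08), the spindle protein nusap1 at 17.8 CPM in TRDKO against 6.502 in WT (1.45 ± 0.08) and the anaphase activator cdc20 at 16.2 CPM in TRDKO against 6.05 in WT (1.42 ± 0.08). DNA replication genes leaned the same way with smaller changes, 27 of 46 rising and 4 falling (median 0.26), led by the nucleotide enzyme dut (0.95 ± 0.09) and the licensing factor cdc6 (0.93 ± 0.16). Mitosis genes were also higher in TRDKO with T3, in 49 of 50 (median 1.93), where 18.6% of all genes were higher. In control tail, where 36.8% of all genes were higher, 49 of 50 rose (median 2.37). Their unscaled sums were 631 CPM in TRDKO control intestine against 323 CPM in WT, and with T3 924 CPM in TRDKO against 315 CPM in WT.

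Growth and energy genes differed by less. Of 49 ribosome biogenesis genes 9 rose and 32 fell (median -0.19), and with upper-quartile scaling 11 rose and 22 fell. Cytosolic ribosomal protein genes fell in 45 of 73 by small amounts (median -0.09), but with upper-quartile scaling 6 rose and 6 fell, so that no direction can be read from them. Oxidative phosphorylation subunits rose in 56 of 71 and fell in 4, with a median of 0.18 and ndufb8 the highest among those named (0.48 ± 0.03), while the electron carrier cycs changed by -0.63 ± 0.03. Proteasome subunits rose in 22 of 38 and fell in 10. These counts of small changes depended on the fit. With all 12 intestine libraries in it, where 8956 genes passed in all, 27 oxidative phosphorylation subunits rose and 2 fell. For proteasome subunits the counts were then 9 and 6. Glycolysis and gluconeogenesis genes fell in 25 of 35 and rose in 9 (median -0.37), with the lactate carrier slc16a1 at 13.6 CPM in TRDKO against 68.8 in WT (-2.33 ± 0.05) and the glucose carrier slc2a1 at 36.3 CPM in TRDKO against 90.9 in WT (-1.31 ± 0.04).

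Cholesterol synthesis rose in 22 of 34 genes and fell in 10 (median 0.23). Squalene epoxidase, sqle, had 70.3, 70.2 and 67.5 CPM in TRDKO, against 19.9, 17.7 and 17.3 CPM in WT, a rise of 1.92 ± 0.04 without overlap. The synthase hmgcs1 rose by 1.57 ± 0.03 (195 CPM in TRDKO against 65.5 in WT), while mylip, a ligase that lowers the LDL receptor, changed by -1.12 ± 0.06. Both with T3 (2.05) and in tail (1.74) sqle was again higher. In fatty acid metabolism 23 of 51 rose and 22 fell, with the desaturases fads1 (1.85 ± 0.05) and fads2 (1.15 ± 0.02) among the rises, and plin2, the coat of lipid droplets (-1.21 ± 0.03), and the lipase pnpla2 (-1.31 ± 0.04) among the falls. Lysosome and autophagy genes rose in 17 of 44 and fell in 21, with the autophagy receptor sqstm1 at 519 CPM in TRDKO against 2248 in WT (-2.11 ± 0.04). Apoptosis genes fell in 20 of 37 and rose in 8 (11 rose and 14 fell with upper-quartile scaling), including the BH3 genes bcl2l11 (-1.39 ± 0.04) and bmf (-1.22 ± 0.03) and the death receptor fas (-1.06 ± 0.03). In the circadian clock 10 of 23 rose and 9 fell, and the core activators arntl (-1.55 ± 0.07) and clock (-1.05 ± 0.04) were both lower. Outside the lists, cyp24a1, the vitamin D hydroxylase, had 2.42 CPM in TRDKO against 111 in WT (-5.50 ± 0.06) and was higher in TRDKO with T3 (1.53).

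Comparison with libraries that took no part asked which differences were not bound to the untreated intestine. Of the 1128 genes at least 2-fold higher in TRDKO control, 979 were tested with T3, where 4.16% of all genes were at least 2-fold higher and 5.24% lower. Of these 979, 219 were again at least 2-fold higher (22.37%, and 37.12% of the 590 such genes of the T3 comparison that were tested here), and 126 were at least 2-fold lower. Of the 951 lower genes, 801 were tested with T3 and 232 were again lower (28.96%, and 33.0% of 703), with 50 higher. Without TRDKO T3 replicate 3 these counts were 236 of 1009 and 243 of 824, where 5.41% of all genes were at least 2-fold higher and 6.02% lower. In control tail, where 9.30% were at least 2-fold higher and 5.78% lower, 319 of 943 higher genes were again higher (33.83%, and 28.03% of 1138) and 318 of 794 lower genes again lower (40.05%, and 43.03% of 739). Control tail shared list differences with control intestine, in a comparison where 36.8% of all genes were higher in TRDKO and 36.7% lower. Of its oxidative stress genes 30 of 35 fell, of its heat shock genes 33 of 44, and 18 of 21 exocrine pancreas genes rose. The part of such genes in these overlaps was not tested. The organ by genotype interaction passed for 10014 of 17643 genes (56.8%), and the genotype by T3 interaction for 8108 of 15491 (52.3%).

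In all 3 comparisons 107 genes were at least 2-fold higher and 83 at least 2-fold lower. Of the 107, 20 were members of the mitosis or DNA replication lists, and further mitosis genes outside them, such as kif20a, prc1 and ncapg, were among the rest. The plasma protein genes alb, fgb, fetub, ambp, serpina1 and ttr were also among the 107. Other genes of the 107 were gpr179, an orphan receptor with 482 counts in TRDKO against 2 in WT, the tubulin tubb1 (8.1996 CPM in TRDKO against 0.796 in WT, 3.36 ± 0.15) and tdp2, a DNA repair phosphodiesterase (18.99 CPM in TRDKO against 3.47 in WT, 2.45 ± 0.09). Among the 83, the surface protein thy1 had 0.415, 0.286 and 0.312 CPM in TRDKO, against 13.6, 12.7 and 12.7 CPM in WT, and was lower with T3 (0.372 CPM in TRDKO against 11.8 in WT) and in tail (7.86 CPM in TRDKO against 44.8 in WT). The homeobox gene nobox had 0.285 CPM in TRDKO against 9.903 in WT (-5.08 ± 0.18), then 0.0614 CPM in TRDKO against 13.3 in WT with T3 and 0.0434 CPM in TRDKO against 4.597 in WT in tail. The resistin-type gene retn.1, not one of the 83, was lower in both intestine comparisons only. It had 0.415, 0.571 and 0.5796 CPM in TRDKO, against 345, 378 and 345 CPM in WT, a change of -9.42 ± 0.07, with 0.319 CPM in TRDKO against 289 in WT with T3. In tail retn.1 stood at 39.2 CPM in TRDKO against 29.4 in WT, and the organ by genotype interaction was -9.78 (adjusted p = 3.48e-75).

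**Figure D5:**
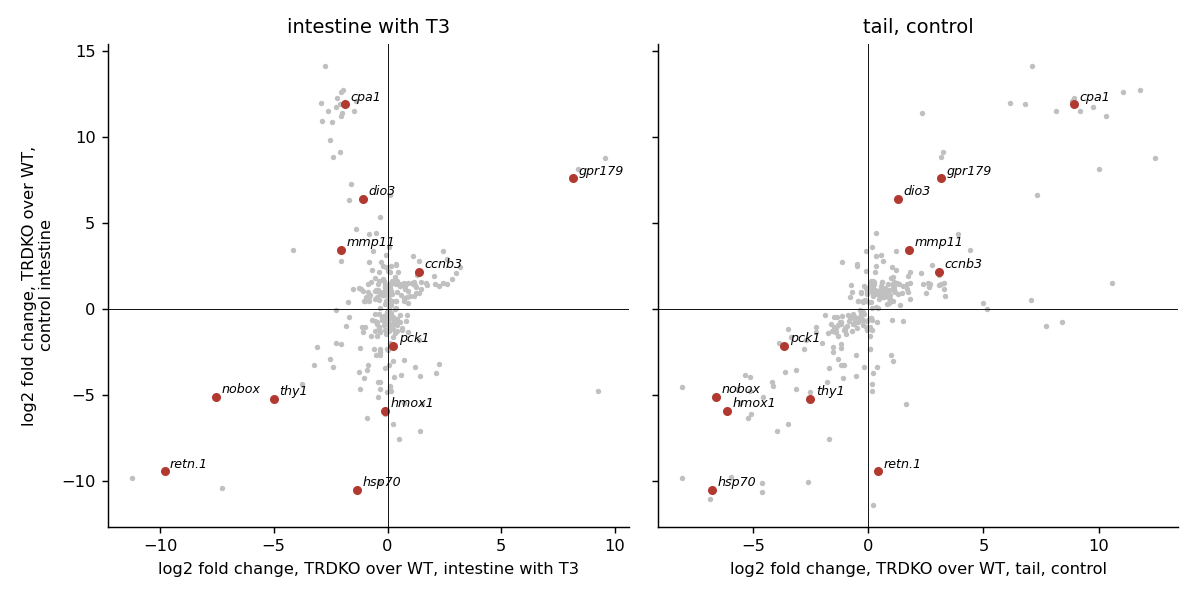
Log2 fold change, TRDKO over WT, of the named genes in control intestine (vertical) against the same in intestine with T3 (left) and in control tail (right), which share no library with it. Genes without counts in a group are drawn at their fitted values, which are no bounds. Labelled examples include cpa1 and dio3, which lie left of 0 with T3, and retn.1, thy1 and nobox, which lie far below and left of 0 with T3.

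Some genes had no count in one genotype. With at least 0.5 CPM in every library of the other genotype, 19 genes had no count in TRDKO control intestine and 20 none in WT. Of the 19, 8 had no count in any of the 12 TRDKO libraries. The antigen peptide transporter tap1 was one, with 320 counts in WT, at least 114-fold lower. It lies on chromosome 8 from 73337158 to 73376843, between 2 provisional loci from 73308043 to 73410419 that also had no count in any TRDKO library. The gene svep1l on chromosome 8 had 0, 0 and 0 CPM in TRDKO, against 7.83, 7.85 and 6.82 CPM in WT, at least 174-fold lower. Unlike tap1, svep1l had counts in other TRDKO libraries of the study, 12 in sum. Of the 83 genes lower in all 3 comparisons, 24 lay on chromosome 8 (28.92%) and 15 on chromosome 7 (18.07%), where 11.75% and 8.42% of tested genes lie. The class II gene hla-dqa1 on chromosome 8 was one, with 9.42 CPM in TRDKO against 42.9 in WT (-2.19 ± 0.06). These were the largest shares of any chromosome, and neighbours such as tap1 and its 2 flanking loci each count in them. Of the 107 genes higher in all 3 comparisons, 18 lay on chromosome 8 (16.82%) and 6 on chromosome 7 (5.61%).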

How the data were processed

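RNA was extracted from intestine and tail, and stranded total RNA libraries were made from it, per the labels' protocols. The submitters' processing notes name cutadapt 3.2, STAR 2.7.7a and Subread 2.0.1, whose featureCounts program made the table, per the file headers. For each of 26531 genes the authors deposited raw counts, in whole numbers and not normalized, and 26530 of the symbols matched a table of assembly UCB_Xtro_10.0. Coordinates are those of the deposited count table. Per the file headers, read pairs were counted by strand at their primary alignments, so near-identical paralogs can exchange reads, and reads marked as duplicates were dropped, which can lower the most abundant genes.

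The 3 TRDKO and 3 WT control intestine libraries were fitted alone, since 1 library of another intestine group stood apart. Genes were filtered with filterByExpr, scaled by trimmed means (TMM) and compared by the robust quasi-likelihood test of edgeR 4.0.16 in R 4.3.3, with Benjamini-Hochberg adjustment over all genes at 0.05. The same fit was run for the T3 intestine and control tail comparisons, for both interactions and for T3 in WT tail. In the WT control tail group, replicates 1 and 3 differed by no more than sampling noise would give (mean chi-square per gene 1.0129, p = 0.1266, where noise alone gives 1). They were summed and counted as 1 library. CPM of lists over 24 libraries are unscaled. For a group without counts, folds were computed against 3 counts summed over its libraries, and ratios against 1 to 3 counts have exact 95% intervals, both for counting error only. Alternatives were upper-quartile scaling, DESeq2 1.42.0, limma-voom (limma 3.58.1), no filter, a replicate block, leaving out libraries, wider fits and edgeR's glmTreat against a fold of 1.5. The fitting procedure was tested on simulated data.

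The members and the 42 gene lists were chosen with earlier results of these data known. Named genes were the receptors and the hormone response list, the 15 largest rises and 15 largest falls with at least 5 CPM in the higher group and no overlap, and up to 5 members of each list, by size of change among those that passed with at least 2 CPM in the higher group. Defining markers and a few members that help to describe a list were named besides, and genes outside the lists were chosen after their values were seen. A few members of the lists, counted in them, are not reported here by name.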

Additional observations from a re-analysis of the deposited data

Results flagged for a closer look

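In 26 flagged genes the difference between TRDKO and WT intestine had one sign with T3 and the opposite sign without it. Both differences passed, and edgeR's genotype by T3 interaction passed too. The flagged genes are not all the named genes that changed sign with T3. Others given elsewhere include hpx, noxo1.1, pla2g3, cyp24a1, pglyrp1, endoul2 and cblif. Values below are that interaction on the log2 scale, the difference with T3 minus the difference in control. Among hormone response genes, dio3 (-7.48), mmp11 (-5.49), bmp4 (-2.32), sox4 (-2.11), mecom (-1.86), the receptor gene thrb (-1.44) and the inhibitor of helix-loop-helix factors id2 (-0.39) were lower in TRDKO with T3 and higher in TRDKO without it. The carriers slc7a5 (1.71) and slc3a2 (1.21) and the methyltransferase prmt1 (0.89) went the opposite way.

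Pancreatic genes made up most of the others, all lower in TRDKO with T3 and higher in TRDKO without it. The proteases and carboxypeptidases were cpb1 (-14.66), cpa1 (-13.73), cela1.1 (-14.62), cela1.5 (-14.5), cela1.6 (-14.01), cela2a (-14.86), ctrl (-14.02), ctrb1 (-14.11), ctrc (-13.2) and prss2 (-12.98). With them moved the nuclease dnase1 (-16.81), the phospholipase pla2g1b (-13.49), the lipase cofactor clps (-13.29), and pdia2 (-13.34) and erp27 (-13.75), which belong to the disulfide isomerase family. WT control intestine had no count of dnase1 or erp27, so both their values are fitted against 0 counts and are no measured folds. The metalloreductase-type gene steap4.2 (8.49) had 3 counts in TRDKO control intestine against 422 in WT and was higher in TRDKO with T3, by 1.44. Without TRDKO T3 replicate 3, the library that stood apart, the interaction kept its sign and passed for all 26 genes, with dio3 at -7.49 and cpa1 at -13.86.

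For retn.1 the organ by genotype interaction was -9.78 (control intestine minus control tail), with a log2 difference of -9.42 in control intestine and 0.42 in control tail, both past the test.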

How the results depend on the processing

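The 10996 genes that passed between TRDKO and WT control intestine were 2831 when edgeR tested against a fold of 1.5 in place of no change. Leaving out 1 library at a time gave 10520 to 10756, with 1144 to 1231 at least 2-fold higher and 963 to 1043 at least 2-fold lower. With all 12 intestine libraries in the fit 8956 passed, and 11185 without TRDKO T3 replicate 3. Upper-quartile scaling moved the median log2 fold change to 0.096 from 0.01 and the share of higher calls to 60.45% from 50.13%, and reversed actc1 (0.0105, adjusted p = 0.7007, not passed). Of 298 named genes with a test, DESeq2 lost 4 calls, limma-voom 1, no filter 2, the 12-library fit 8 and the 1.5-fold test 60. The replicate numbers did not pair the libraries (correlations of same-numbered deviations -0.001, 0.037 and 0.037 over 9632 genes), and with the number as a replicate block 11006 genes passed and no named gene lost or gained its call. Leaving out 1 library gave 3764 to 10122 genes with T3, the highest without TRDKO T3 replicate 3 (10122, against 5620 with it), and 7422 to 10560 for the T3 interaction. Fits that left only 1 WT control tail library, with its replicates 1 and 3 taken as 1, are not counted here. Among the other fits the ranges were 11660 to 12028 in control tail, 9567 to 9902 for the organ interaction and 11085 to 11199 for T3 in WT tail. Depth limits genes with few counts, whose fold changes carry wide counting intervals.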

Other observations

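Genes outside the lists, chosen after their values were seen, added further large differences in control intestine. The oxidase subunit gene noxo1.1 had 39.6 CPM in TRDKO against 3.67 in WT without T3, was lower in TRDKO with T3 (-4.17) and higher in TRDKO in control tail (4.40). Angiotensinogen, agt, had 20.2 CPM in TRDKO against 2.76 in WT and was higher in TRDKO with T3 as well (2.61). Lower in TRDKO were arginase arg2 (1.54 CPM in TRDKO against 38.9 in WT), the glutamine carrier slc1a5 (5.51 CPM in TRDKO against 65.2 in WT), the costimulatory ligand cd86 (0.847 CPM in TRDKO against 12.9 in WT), the protease inhibitor timp-1 (7.25 CPM in TRDKO against 74.7 in WT) and the sialyltransferase st8sia6 (0.506 CPM in TRDKO against 10.7 in WT). With T3 st8sia6 was again lower in TRDKO (-3.75), as was the troponin gene tnnt2 (-2.38), which had 3.69 CPM in TRDKO against 37.7 in WT without T3. The phospholipase pla2g3 had 13.04 CPM in TRDKO against 122 in WT without T3, and with T3 it was higher in TRDKO (2.26).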
